A study of Rattus norvegicus with 8 samples.

Results

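The delta glutamate receptor gene Grid1 and the cerebellin genes Cbln1, Cbln2 and Cbln4 were followed in hypothalamic RNA of adult Long-Evans rats. Members were chosen by gene symbol, and these 4 genes held 17 of the 98356 alternative polyadenylation (APA) sites and 4 of the 18003 gene symbols in the data. The 4 cannabis-exposed rats inhaled vaporized cannabis plant matter for 10 min, and the 4 air-treated controls went through the exposure without cannabis in the vaporizer. The study's methods give all rats as male and the tissue as collected 1 hr after exposure, with food removed in between. The assay, WTTS-Seq (whole transcriptome termini site sequencing), captures 3′ ends of poly(A) RNA, and a read marks the APA site at which an RNA ended. Values are normalized counts, that is, reads on a site after division by the size factor that corrects for the depth of its library. The comparison asks whether cannabis altered how much RNA these genes made and at which site that RNA ended.

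Cerebellins are small secreted proteins of the C1q family that assemble into multimers in the synaptic cleft. They hold on one side to neurexins of the presynaptic membrane and on the other to delta glutamate receptors of the postsynaptic membrane, and this bridge helps synapses to form and to last. Grid1 encodes GluD1, a delta receptor that belongs to the ionotropic glutamate receptors by sequence but acts mainly as an adhesion and organizing protein rather than as a glutamate-gated channel. Cbln1 is best known from the granule cells of the cerebellum, while Cbln2 and Cbln4 are known from forebrain neurons, and Cbln4 also binds the netrin receptor DCC. A choice between APA sites can leave the protein as it is and alter the tail of the RNA, or, where a site lies inside the gene, cut the RNA short.

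The libraries held from 1159811 to 3706778 reads on sites, and air control replicate 4 was the shallowest. The worth of 1 read ran between 0.664 and 1.99 normalized counts, so values of a few normalized counts rest on a few reads. Summed over the 8 libraries, Grid1 had 447 reads, Cbln2 444, Cbln1 284 and Cbln4 135. In normalized counts averaged over all libraries, the Grid1 total of 51.1 was higher than that of 66.6% of gene symbols, and the Cbln2 total of 49.0 was higher than that of 65.7%. The Cbln1 total of 29.6 was higher than that of 55.0% of gene symbols, and the Cbln4 total of 16.2 was higher than that of 42.2%. Reads come from RNA ends and not from the whole length of an RNA, so these totals were not divided by gene length. The tissue label was checked on lists of markers. Of 7 genes of hypothalamic neurons, such as Hcrt, Pmch and Agrp, 6 were found, and their summed level was from 782.5 to 1296 normalized counts in controls and from 1029 to 1764 in cannabis-exposed rats. Of 4 genes on the list for the cerebellum, 1 was found, Barhl2, with from 4.03 to 20.4 and from 6.21 to 19.7 normalized counts. This 1 gene does not measure cerebellar tissue.

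No gene total differed between the groups beyond the spread between rats. By limma on log2(normalized count + 1), 0 of the 4 totals had P under 0.01 and 0 had P under 0.05, and the same counts were 0 and 0 by edgeR and by DESeq2 on the recovered reads. Over all 18003 gene totals, 0.278% had P under 0.01 and 2.41% had P under 0.05 in limma. Because the tissue was not separated into cells, fewer cells of a type and less RNA per cell cannot be told apart in any of these levels.

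Grid1, the receptor gene, varied least among the members relative to its mean. Its total was 50.4, 51.5, 45.7 and 57.6 normalized counts in controls and 50.9, 50.5, 42.3 and 59.9 in cannabis-exposed rats. The control values lay inside the range of the cannabis values, with means of 51.3 ± 4.91 and 50.9 ± 7.19 (SD, n = 4 each). The log2 difference, cannabis minus control, was -0.02 with a 95% interval from -0.53 to 0.50 (adjusted P = 0.999 by limma), which in fold terms allows from 0.692 to 1.41. The exact permutation test gave P = 0.8857.

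Among the ligands, Cbln2 had the highest total in 7 of the 8 libraries. Its total was 59.9, 47.9, 51.0 and 31.8 normalized counts in controls and 37.3, 29.9, 68.9 and 65.3 in cannabis-exposed rats. The cannabis libraries fell into a lower and a higher pair and spanned the controls. The log2 difference of Cbln2 was 0.03 with a 95% interval from -0.68 to 0.73 (adjusted P = 0.999 by limma), with an exact permutation P of 0.9714.

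Cbln1 had totals of 35.1, 35.9, 33.6 and 13.9 normalized counts in controls and of 17.4, 39.2, 16.7 and 45.3 in cannabis-exposed rats. A single control, replicate 4 with 7 reads, lay far below the others. The cannabis libraries formed a lower pair, replicates 1 and 3, and a higher pair, replicates 2 and 5. These were not the pairs seen for Cbln2, where replicates 1 and 2 were the lower. The log2 difference of the Cbln1 total was -0.04 with a 95% interval from -0.94 to 0.85 (adjusted P = 0.999 by limma). Its sign turned in 5 of the 8 fits that left out 1 library, and the exact permutation test gave P = 1.

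Cbln4, the least abundant member, had totals of 20.5, 22.7, 3.36 and 17.9 normalized counts in controls and of 19.9, 13.9, 11.8 and 19.2 in cannabis-exposed rats. The low control was replicate 3, with 5 reads, and without it the log2 difference went from 0.24 to -0.34. The 95% interval of the difference for Cbln4 ran from -0.86 to 1.33 (adjusted P = 0.999 by limma), wide enough to allow a fold from 0.551 to 2.52, with an exact permutation P of 0.9143.

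**Figure D1:**
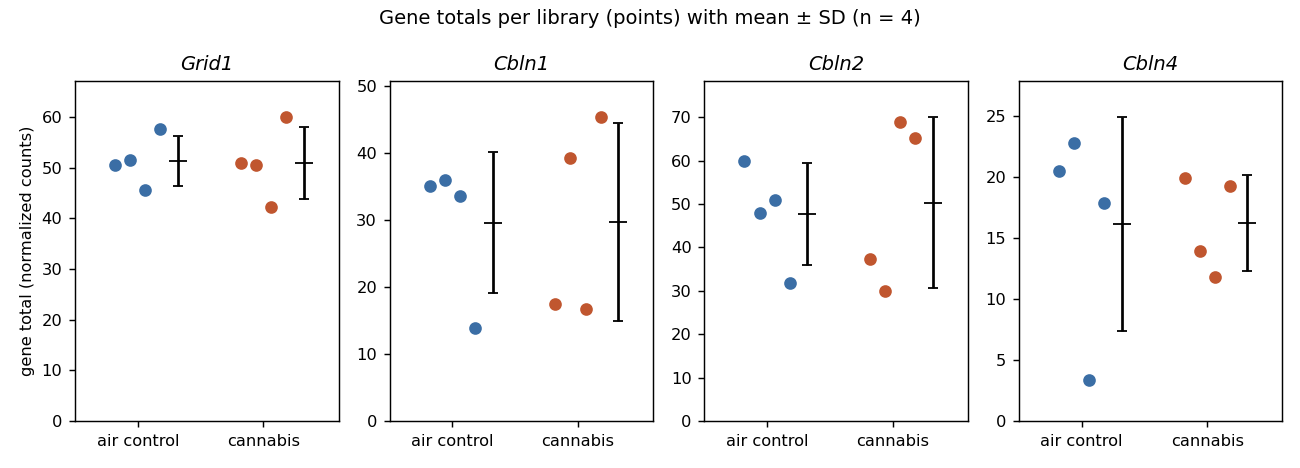
Gene totals in normalized counts (vertical axes, starting at 0) of Grid1, Cbln1, Cbln2 and Cbln4 for the 4 air-treated controls (blue points) and the 4 cannabis-exposed rats (orange points), with the mean and SD of each group in black. The groups overlap for every gene, Grid1 varies least relative to its mean, and the low control points are replicate 4 for Cbln1 and replicate 3 for Cbln4.

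The mix of the 3 ligands was compared within libraries, where library scaling has no part. Cbln2 made up from 44.9% to 58.0% of the cerebellin reads in controls and from 36.0% to 70.7% in cannabis-exposed rats. Cbln1 made up from 21.9% to 38.2% and from 17.2% to 47.2%, and Cbln4 from 3.82% to 28.1% and from 12.1% to 26.7%. The order Cbln2, Cbln1, Cbln4 held in 5 libraries, Cbln4 exceeded Cbln1 in 2 libraries, and Cbln1 led in 1, cannabis replicate 2. The 3 cerebellin totals together were from 1.10 to 2.29 times the Grid1 total in controls and from 1.46 to 2.30 times in cannabis-exposed rats. Neither the mix nor the ratio of ligand to receptor RNA separated the groups.

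The sites within each gene were numbered by their mean over all libraries, with site 1 the highest. Their positions along the genes were not analysed here, so a site number carries no order from the start of a gene to its end. Of the 17 member sites, 9 had a positive and 8 a negative difference in limma, with 0 at P under 0.01 and 2 at P under 0.05, against 0.381% and 3.03% of all 98356 sites. Both sites at P under 0.05 in limma were those of Cbln1. On the recovered reads, 0 member sites had P under 0.01 by edgeR or DESeq2. The 2 at P under 0.05 were again those of Cbln1 by DESeq2, but by edgeR with TMM they were Cbln1 site 2 and Cbln2 site 4, whose reads came almost all from 1 rat, and Cbln1 site 1 was at 0.0609. Without the mean-variance trend Cbln1 site 1 was at 0.0703 in limma, and without control replicate 2 or without cannabis replicate 2, 0 member sites were under 0.05.

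In these libraries Cbln1 reads split differently between the 2 sites by group, while the total did not differ. No level or share of Cbln1 passed its correction for multiple tests. Its shares stood out as those with the lowest limma P of the 17 member shares. Site 1 had 27.8, 33.5, 20.1 and 11.9 normalized counts in controls and 7.45, 8.64, 7.87 and 20.7 in cannabis-exposed rats. Site 2 had 7.31, 2.39, 13.4 and 1.99 normalized counts in controls and 9.93, 30.6, 8.86 and 24.6 in cannabis-exposed rats. Site 1 was lower in most cannabis libraries and site 2 higher, but at each site 1 or more libraries crossed over, so the groups overlapped at both.

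At site 1 of Cbln1 the means were 23.3 ± 9.38 in controls and 11.2 ± 6.39 normalized counts in exposed rats (SD, n = 4 each). The log2 difference was -1.03 (standard error 0.486, 95% interval from -2.04 to -0.02, limma P = 0.0463 and exact permutation P = 0.0857). At site 2 of Cbln1 the means were 6.28 ± 5.34 and 18.5 ± 10.8 normalized counts (SD, n = 4 each). The log2 difference was 1.54 (standard error 0.584, 95% interval from 0.33 to 2.75, limma P = 0.0153 and exact permutation P = 0.1143). The adjusted P of both Cbln1 sites in limma was 1.00, so neither passed the correction over all sites.

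As a share of all Cbln1 reads of a library, the sites separated the groups. Site 2 made up 20.8%, 6.67%, 40.0% and 14.3% of the Cbln1 reads in controls and 57.1%, 78.0%, 52.9% and 54.2% in cannabis-exposed rats. Every cannabis library lay above every control, and the nearest were control replicate 3 at 40.0% and cannabis replicate 3 at 52.9%. In counts of reads, site 1 led site 2 in 4 of 4 controls, by 38 to 10, 28 to 2, 30 to 20 and 6 to 1. In 4 of 4 cannabis-exposed rats site 2 led, by 8 to 6, 46 to 13, 9 to 8 and 32 to 27. The lead in cannabis replicates 1, 3 and 5 was therefore small, and only in cannabis replicate 2 did the 95% Wilson interval of the site 2 share, from 65.9% to 86.6%, lie above an even split among the 4 cannabis libraries.

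The counting error behind these shares was wide in the shallow libraries. The 95% Wilson interval of the site 2 share ran from 2.57% to 51.3% in control replicate 4, with 7 Cbln1 reads, and from 32.6% to 78.6% in cannabis replicate 1, with 14. In control replicate 2, with 30 reads, it ran from 1.85% to 21.3%, and in cannabis replicate 5, with 59 reads, from 41.7% to 66.3%. In control replicate 1 the interval was from 11.7% to 34.3%, in control replicate 3 from 27.6% to 53.8%, and in cannabis replicate 3 from 31.0% to 73.8%. These intervals leave out the spread between rats and treat each read as an independent molecule. Reads without molecular identifiers can be copies, so the intervals may be too narrow even for counting error.

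The mean share of Cbln1 site 2 was 20.4% ± 14.3 in controls and 60.6% ± 11.7 in exposed rats (SD, n = 4 each), a difference of 40.1 percentage points. The exact permutation test gave P = 0.0286, the smallest that 4 against 4 rats allow. Since a gene with 2 sites has only 1 degree of choice, the fall of the site 1 share from 79.6% ± 14.3 to 39.4% ± 11.7 is the same comparison. In the limma fit of log2 shares over the 57287 sites of genes with at least 2 sites, site 2 of Cbln1 had a log2 difference of 1.58 (standard error 0.445, 95% interval from 0.60 to 2.57), with a limma P of 0.00486 that did not pass the correction over all shares (adjusted P = 1.00). Site 1 of Cbln1 had a log2 difference of -0.98 (standard error 0.308, 95% interval from -1.67 to -0.30), with a limma P of 0.00919, which was 0.0124 without the mean-variance trend, and likewise an adjusted P of 1.00.

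Against the background of the same comparison, 0.347% of all site shares had P under 0.01 in limma, and in 2.04% the groups did not overlap. Both Cbln1 sites, which are 1 comparison, and no other of the 17 member sites met each of these criteria. Since they were singled out as the lowest of 17, these percentages do not give the chance of such a finding. Among sites with a mean of at least 10 normalized counts, 0.355% had P under 0.01 and 1.76% did not overlap. Leaving out single libraries moved the log2 difference of the Cbln1 site 2 share between 1.20 and 1.93 and its P between 0.00121 and 0.0175. It was no longer under 0.01 without cannabis replicate 1, 2 or 5, where it was 0.0100085, 0.0175 and 0.0106. For the Cbln1 site 1 share, P stayed under 0.01 in limma in 2 of the 8 fits, those without control replicate 3 and without cannabis replicate 3, and was otherwise up to 0.0309.

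**Figure D2:**
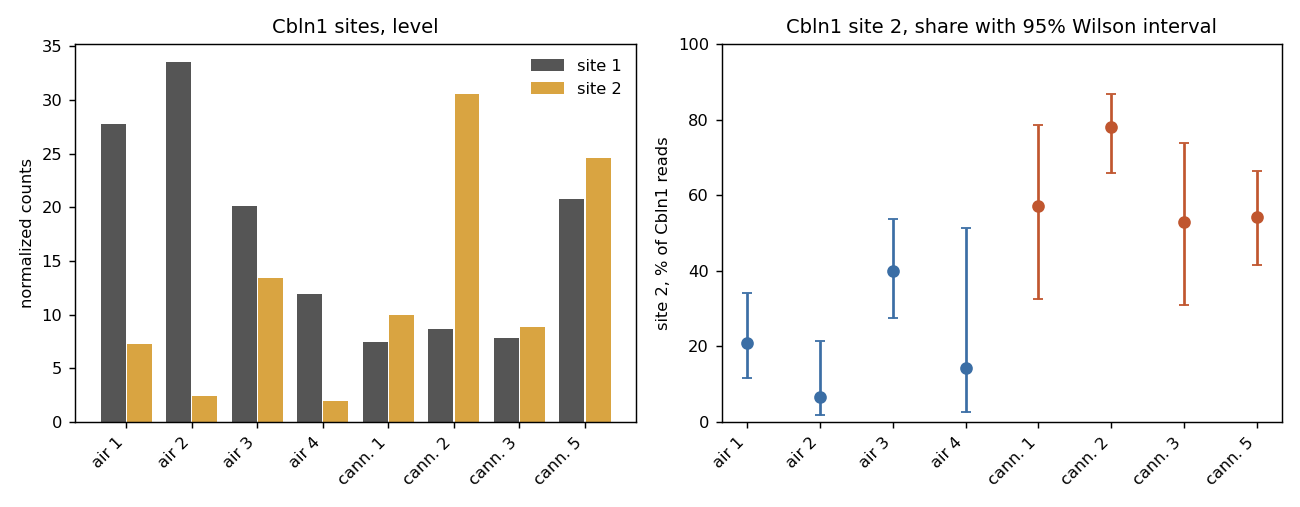
Left, normalized counts (vertical axis, starting at 0) at Cbln1 site 1 (grey bars) and site 2 (yellow bars) in each library. Right, the share of Cbln1 reads at site 2 in percent with its 95% Wilson interval, controls in blue and cannabis-exposed rats in orange. The grey bar is taller in all 4 controls, the yellow bar in all 4 cannabis-exposed rats, and the shares run from 6.67% to 40.0% and from 52.9% to 78.0%.

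Markers of other cells and of neighbouring regions were compared between the groups. Of 6 markers of midbrain dopamine neurons, 4 were lower in cannabis-exposed rats at P under 0.01 in limma (Slc6a3, Th, En1 and Ddc). The summed level of all 6 markers was from 770.9 to 1000.04 normalized counts in controls and from 231.0 to 398.6 in cannabis-exposed rats. Pitx3, a transcription factor that defines these neurons, was at 0 reads in 1 control and 3 cannabis libraries. The summed level of 2 endothelial markers was from 75.3 to 80.2 and from 83.0 to 108.2 normalized counts, without overlap, with 0 of 2 at P under 0.01 in limma. Each of these 2 genes overlapped on its own. Flt1 ran from 60.7 to 77.9 in controls and from 77.1 to 105.3 in cannabis-exposed rats. Cldn5 had a mean of 6.25 in controls and 4.32 in cannabis-exposed rats, so the sum followed Flt1. Of all gene totals, 1.98% showed no overlap. Both summed levels separated the same groups as the Cbln1 shares, and their part in the result was not tested.

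The summed levels of the other marker lists overlapped between the groups. Among them, 6 genes of hypothalamic neurons summed to from 782.5 to 1296 normalized counts in controls and from 1029 to 1764 in cannabis-exposed rats. Their log2 differences ran from -0.21 to 0.86 with a median of 0.41, and the lowest limma P was 0.0468 (Nkx2-1). For 3 mammillary genes the summed levels were from 35.7 to 118.5 normalized counts in controls and from 63.3 to 120.1 in cannabis-exposed rats. For 4 thalamic genes they were from 244.3 to 284.9 and from 255.8 to 338.8. For pan-neuronal genes they were from 1000.4 to 1601 and from 912.7 to 1214.5, for inhibitory neurons from 693.1 to 1202 and from 717.4 to 1546, and for the 1 excitatory marker found, Slc17a6, from 53.6 to 167.9 and from 57.1 to 153.5. Astrocyte genes summed to from 2568 to 3436 and from 2683 to 4239 normalized counts, oligodendrocyte genes to from 4240.03 to 5587 and from 4005 to 4523, microglial genes to from 416.7 to 601.7 and from 425.8 to 553.0, and choroid plexus genes to from 0 to 19.2 and from 3.73 to 28.6. None of the genes in the lists of this paragraph had P under 0.01 in limma.

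Grid1 reads fell on 9 sites, none of which held most of the reads. Site 1 made up 20.3%, 23.3%, 20.6% and 31.0% of Grid1 reads in controls and 29.3%, 26.3%, 41.9% and 47.4% in cannabis-exposed rats. Site 2 made up 26.1%, 18.6%, 27.9% and 27.6% in controls and 34.1%, 36.8%, 14.0% and 14.1% in cannabis-exposed rats. The 2 cannabis libraries in which site 1 led, replicates 3 and 5, were those in which site 2 was lowest. Site 1 led in 2 of 4 controls, in replicate 2 level with site 3 at 10 reads each, and in 2 of 4 cannabis-exposed rats, and site 2 led in the others.

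At Grid1 site 1 the normalized counts were 10.2, 12.0, 9.40 and 17.9 in controls and 14.9, 13.3, 17.7 and 28.4 in cannabis-exposed rats. The log2 difference at Grid1 site 1 was 0.53 with a 95% interval from -0.41 to 1.48 (limma P = 0.254, exact permutation P = 0.1429). For its share of Grid1 reads the mean was 23.8% ± 5.01 in controls and 36.2% ± 10.1 in exposed rats (SD, n = 4 each), with limma P = 0.0816 and exact permutation P = 0.0857. At Grid1 site 2 the normalized counts were 13.2, 9.58, 12.8 and 15.9 in controls and 17.4, 18.6, 5.90 and 8.45 in cannabis-exposed rats. The log2 difference there was -0.14 with a 95% interval from -1.15 to 0.87 (limma P = 0.774, exact permutation P = 0.7429).

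Site 3 of Grid1 is described because it was the only member site whose normalized counts did not overlap, and it was picked out after its values were seen. It had 7.31, 12.0, 8.73 and 5.96 normalized counts in controls and 1.24, 2.66, 5.90 and 5.38 in cannabis-exposed rats. The gap between the groups was far smaller than the value of 1 read, since the lowest control had 5.96 and the highest cannabis-exposed rat 5.90 normalized counts. The log2 difference was -1.08 with a 95% interval from -2.21 to 0.04 (limma P = 0.0575, exact permutation P = 0.0286), and 2.0% of all sites showed no overlap. Its share of Grid1 reads was 16.8% ± 5.60 in controls and 7.66% ± 4.98 in exposed rats (SD, n = 4 each), with overlap between the groups (limma P = 0.0479, exact permutation P = 0.0571). The remaining 6 Grid1 sites had means over all libraries from 1.70 to 4.93 normalized counts, from 16 to 44 reads in all, and P from 0.223 to 0.781 in limma.

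Cbln2 had a stable leading site. Site 1 held the most Cbln2 reads in 8 of 8 libraries, with 38.01, 31.1, 40.3 and 21.8 normalized counts in controls and 24.8, 27.2, 37.4 and 58.4 in cannabis-exposed rats. Its share of Cbln2 reads was from 63.4% to 78.9% in controls and from 54.3% to 91.1% in cannabis-exposed rats. The log2 difference at Cbln2 site 1 was 0.12 with a 95% interval from -0.73 to 0.98 (limma P = 0.768, exact permutation P = 0.7714). Site 2 of Cbln2 was from 7.94 to 12.4 normalized counts in controls and from 1.99 to 8.69 in cannabis-exposed rats, and site 3 from 1.99 to 9.50 and from 0.664 to 4.92, both with overlap. Site 4 of Cbln2 was almost the property of 1 rat, with 19 of its 20 reads in cannabis replicate 3. That was 27.1% of the Cbln2 reads of this rat. In 6 libraries site 4 had 0 reads, which allows up to 3 reads, or from 1.99 to 5.96 normalized counts depending on the library.

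Cbln4 had 2 sites, of which site 1 held the most reads in 4 of 4 controls and in 3 of 4 cannabis-exposed rats. Site 1 had 19.0, 16.8, 2.69 and 17.9 normalized counts in controls and 17.4, 6.64, 10.8 and 18.4 in cannabis-exposed rats. Its log2 difference was 0.10 with a 95% interval from -1.07 to 1.27 (limma P = 0.866, exact permutation P = 0.8571). The share of Cbln4 reads at site 2 was 7.14%, 26.3%, 20% and 0% in controls and 12.5%, 52.4%, 8.33% and 4% in cannabis-exposed rats. Cannabis replicate 2, in which Cbln4 site 2 made up the largest share, was also the library with the largest share of Cbln1 site 2. Unlike the Cbln1 sites, those of Cbln4 overlapped between the groups, and the difference between the 2 genes was not tested.

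**Figure D3:**
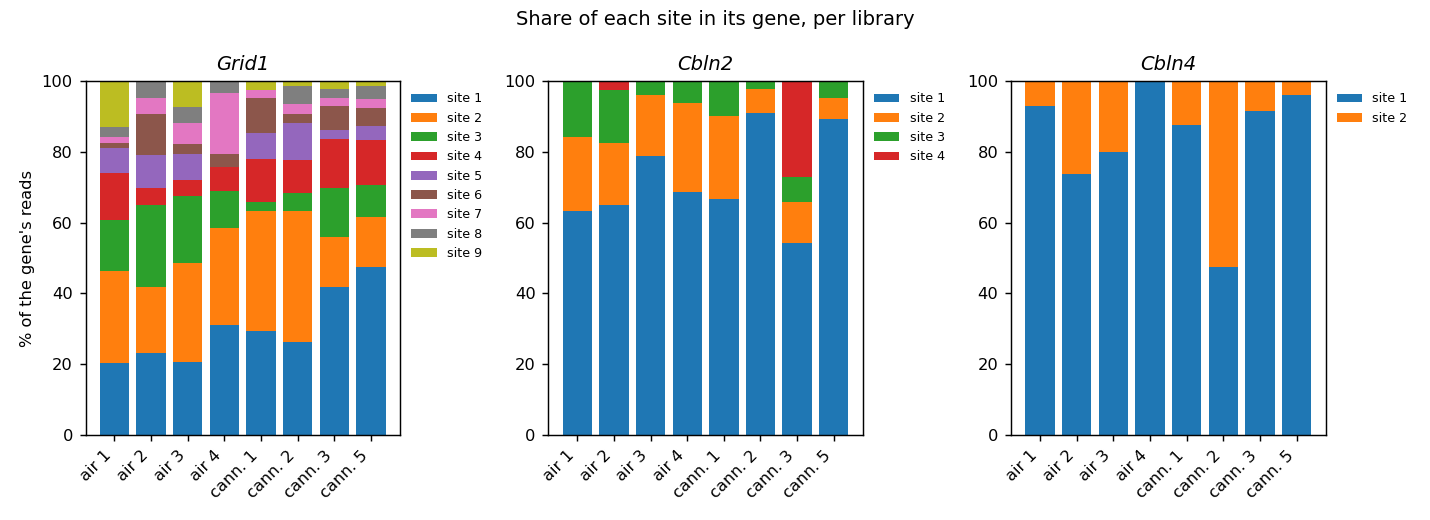
Share of each site in the reads of its gene (percent, stacked to 100, sites numbered by their mean over all libraries) for Grid1, Cbln2 and Cbln4 in the 8 libraries. Grid1 reads are spread over 9 sites, Cbln2 site 1 leads in every library, Cbln2 site 4 stands out at 27.1% in cannabis replicate 3, and Cbln4 site 2 exceeds site 1 only in cannabis replicate 2.

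**Figure D4:**
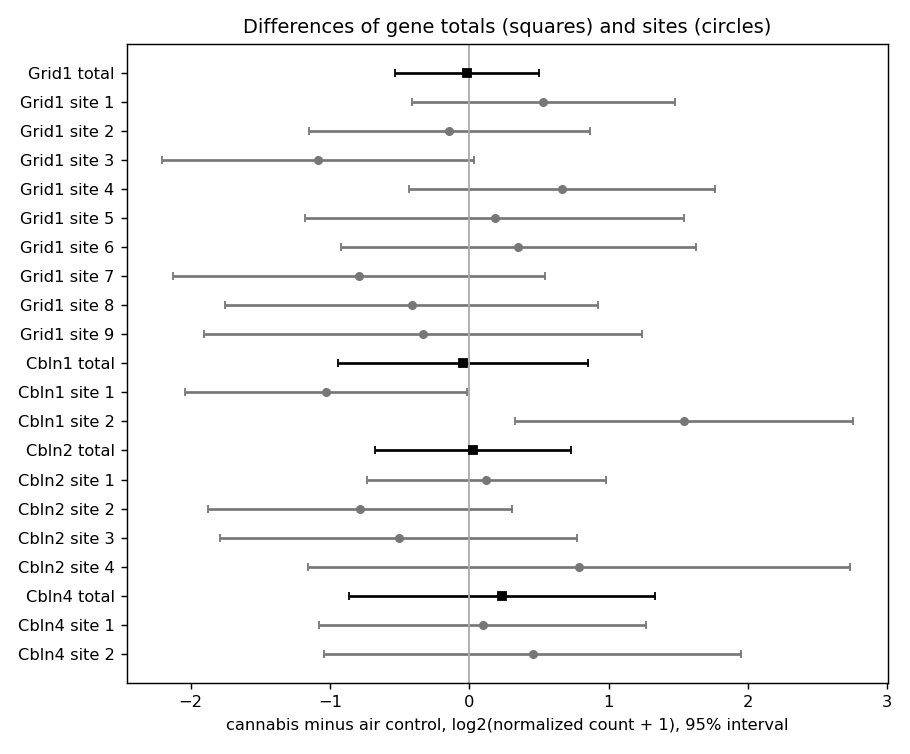
Difference between cannabis-exposed rats and controls on the log2(normalized count + 1) scale with its 95% interval from limma, for the 4 gene totals (black squares) and the 17 sites (grey circles). The intervals of all 4 totals span 0, and among the sites only those of Cbln1, at -1.03 and 1.54, do not.

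The partners of the bridge were taken from a list of 18 genes, of which 15 were found, and the genes given with values here were picked after their values were seen. In limma on gene totals 0 of the 15 had P under 0.01 and 0 had P under 0.05, and both counts were 0 by edgeR and by DESeq2. The median log2 difference of the 15 genes was 0.01, and that of all gene totals was 0.05. Of the presynaptic receptors, the neurexin gene Nrxn3 had 1080.4 ± 115 normalized counts in controls and 1067 ± 39.6 in cannabis-exposed rats, and Nrxn2 had 244.0 ± 34.5 and 243.4 ± 70.1 (SD, n = 4 each). Dcc, the Cbln4 and netrin receptor, had 585.5 ± 24.6 and 556.1 ± 64.2 normalized counts, and its relative Neo1 32.9 ± 9.89 and 42.8 ± 9.64 (SD, n = 4 each). Between groups the summed level of these 4 genes overlapped.

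The C1q-like proteins are relatives of the cerebellins that bind the adhesion receptor encoded by Adgrb3. C1ql1 had from 112.6 to 119.2 normalized counts in controls and from 79.7 to 106.8 in cannabis-exposed rats, the only gene of the list whose groups did not overlap, against 1.98% of all gene totals. Its log2 difference was -0.36 with a 95% interval from -0.81 to 0.08 and an adjusted P of 0.999 by limma. C1ql2 had from 67.5 to 116.8 and from 90.5 to 159.4 normalized counts, and Adgrb3 from 451.2 to 714.9 and from 428.5 to 624.6, both with overlap. Among 7 postsynaptic partners, which include Grm5, the metabotropic receptor found with GluD1, and the scaffold genes Shank1, Homer1 and Dlg4, the log2 differences ran from -0.39 to 0.92. The value of 0.92 was that of Shank2, with 0 reads in control replicate 4 and from 8.69 to 28.5 normalized counts in cannabis-exposed rats, and its 95% interval ran from -0.81 to 2.64. Over the 382 sites of the 15 genes, 0 had P under 0.01 and 7, or 1.83%, had P under 0.05 in limma, against 3.03% of all sites. By edgeR and DESeq2 the first count was also 0, and the second was 12 and 6. Of their 380 site shares, 0 had P under 0.01 and 10, or 2.63%, had P under 0.05 in limma, against 3.03% of all site shares. With sites of a mean of at least 10 normalized counts alone, 1 of 69 shares had P under 0.01.

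The genes whose totals ran most like those of each member were sought among the 3654 genes with a mean of at least 100 normalized counts. This is a description over 8 libraries, and all genes of a library share its depth and scaling. Grid1 ran most like Scamp4 (Pearson r = 0.942, Spearman rho = 0.905) and Vars2 (r = 0.918, rho = 0.976). Cbln1 ran most like St13 (r = 0.953, rho = 0.905) and Apod (r = 0.951, rho = 0.786). Cbln2 ran most like LOC100912334 (r = 0.954, rho = 0.929) and Grm5 (r = 0.937, rho = 0.929). Cbln4 ran most like Cox7a2l (r = 0.908, rho = 0.452) and Paf1 (r = 0.906, rho = 0.762). They were picked as the highest of all r and are given with no test.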

How the data were processed

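Per the study's methods, low-quality reads were removed (FASTX Toolkit), Ts at read starts were cut, TMAP aligned the reads to Rnor_6.0, nearby read ends were merged into APA sites, and Cuffcompare gave the gene symbols. The signal the authors deposited is a normalized count per site, the reads scaled by DESeq2 size factors, with 1 library per file. The 8 files were joined by row order, and all values were whole multiples of 1 read to within 2.4e-05 reads, from which reads were recovered. The lowest total on a site was 16 reads. Gene totals are sums over all sites of a symbol. The study's classes of sites, which include intronic and antisense ones, were not separated, nor was its mapping-quality filter applied. Gene totals, sites and site shares (log2 site minus log2 gene total) were fitted over the whole table as log2(normalized count + 1) in limma 3.58.1 under R 4.3.3, with the trend option of eBayes, 4 cannabis-exposed rats against 4 controls without covariates, with Benjamini-Hochberg adjustment. Fold changes on this scale understate those of low sites. Calls are at P under 0.01, as in the study. Single values also had a two-sided exact permutation test. Sites named in full had a mean of at least 10 normalized counts or P under 0.01, or were the highest of their gene. Members and lists were chosen with earlier results of these data known. Alternatives were edgeR 4.0.16 and DESeq2 1.42.0 on the recovered reads, pseudocounts of 0.5 and 2, a mean filter, equal totals, no trend, the replicate block and each library left out. The fits were tested on simulated data, with changes planted only at sites and genes of higher means than most member sites. That test therefore does not cover sites as low as those of Cbln1. The labels give the samples as separate rats only by number, so P measures the spread between these libraries. Python 3.11.15, scipy 1.17.1 and matplotlib 3.10.9 were used.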

Additional observations from a re-analysis of the deposited data

Results flagged for a closer look

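Of 54 sets of 4 libraries checked, 7 had a library that stood far from the other 3 by Dixon's criterion, where chance gives about 1 in 20. The Cbln1 total of air control replicate 4 was 13.9 normalized counts, from 7 reads in the shallowest library. At Cbln1 site 1, cannabis replicate 5 had 20.7 normalized counts against from 7.45 to 8.64 in the other cannabis-exposed rats. The Cbln1 shares of cannabis replicate 2, 22.0% at site 1 and 78.0% at site 2, are 1 observation seen from both sites. Cbln2 site 4 stood out in cannabis replicate 3 with 18.7 normalized counts and in air control replicate 2 with 1.20, which was 1 read. The other libraries of both groups had no read there, so any read would have met the criterion. Cbln4 site 1 was at 2.69 normalized counts in air control replicate 3, from 4 reads.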

How the results depend on the processing

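Numbers of calls are at P under 0.01 in limma unless stated. Of all 18003 gene totals, 50 were called (18 higher, 32 lower in cannabis-exposed rats), against 433 at P under 0.05, 29 among genes with a mean of at least 10 normalized counts, 76 by DESeq2 (12 higher, 64 lower), 98 without the trend and 24 with the replicate block, and edgeR with TMM called 12 higher and 42 lower. Of all sites 375 were called (121 higher, 254 lower), against 2981 at P under 0.05, 44 with the mean filter and 229 with the replicate block, and DESeq2 called 66 higher and 244 lower. Of all shares 199 were called (99 higher, 100 lower), against 1736, 52 and 76 in the same order, and 438 without the trend. Leaving out 1 library gave from 30 to 90 gene totals, from 227 to 617 sites and from 149 to 316 shares. The mean filter tests fewer features. The replicate block rests on the 3 numbers that both groups share, since air control replicate 4 and cannabis replicate 5 have no partner. The cause of the other moves was not tested. The log2 difference of the Cbln1 site 1 share was -0.98 without the trend and -1.02 with the replicate block, with limma P of 0.0124 and 0.0485, that of the site 2 share 1.63 with the block, with P of 0.0294, so both calls were lost with the block, and leaving out libraries gave from -1.11 to -0.74 and from 1.20 to 1.93. Cbln1 site 1 had a log2 difference in level of -1.62 with the block, with a limma P of 0.00615, while that of site 2 was 1.02 with the block, with P of 0.138, and 1.97 without air control replicate 3, with P of 0.00400. The Cbln1 total had -0.60 with the block, with P of 0.158. Signs turned for differences near 0, where, apart from the libraries that the block sets aside, the cause was not tested. With the replicate block they were -0.30 for the Cbln2 total, -0.30 for Cbln2 site 1, 0.091 for Grid1 site 2 and 0.13 for its share. By edgeR they were 0.00019 for the Grid1 total (authors' size factors), -0.0032 for the Cbln4 total, 0.011 for Grid1 site 2 and -0.0021 for Cbln4 site 1 (TMM), and -0.057 for Cbln4 site 1 (authors' size factors). By DESeq2 they were -0.021 for the Cbln4 total and -0.060 for Cbln4 site 1. Leaving out libraries moved the totals from -0.097 to 0.067 (Grid1), -0.36 to 0.17 (Cbln1), -0.15 to 0.24 (Cbln2) and -0.34 to 0.48 (Cbln4), the levels from -0.36 to 0.14 (Grid1 site 2), -0.12 to 0.28 (Cbln2 site 1) and -0.49 to 0.37 (Cbln4 site 1), and the shares from -0.35 to 0.085 (Grid1 site 2), -0.0038 to 0.24 (Cbln2 site 1) and -0.23 to 0.073 (Cbln4 site 1). Libraries with the same number did not deviate together (mean correlation -0.07 over 3 pairs, 0.02 over 13 others). With only 3 pairs this cannot tell whether the numbers pair the rats, and the labels do not say. Depth limits most sites, since the shallowest library allows 5.96 normalized counts where it has no read.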
